A study of Danio rerio with 10 samples.

Results

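The genes described here encode the proteins of the mitochondrial ribosome and of the channels that bring proteins into mitochondria. They were chosen by a rule on symbols: every gene whose symbol begins with mrpl, mrps, timm or tomm and that has a probe set annotated to it and to no other gene. The choice was made with earlier results of these data known. The rule found 78 genes with 90 probe sets, of 8793 genes on the array, and a gene with several probe sets was represented by the probe set of highest mean signal. A RefSeq gene table (assembly GRCz12tu) lists 101 genes with such symbols, of which the other 23 were not analysed here. By role, 40 genes encode the large ribosomal subunit, 19 the small subunit, 7 the outer-membrane translocase TOM, 5 the inner-membrane translocase TIM23, and 5 the translocase TIM22 or the small TIM chaperones. The large-subunit group holds mrps18a and mrps30, whose mammalian counterparts sit in that subunit in spite of their names. The last 2 genes carry the family name but work elsewhere: tomm34 encodes a cytosolic co-chaperone, and timmdc1 an assembly factor of respiratory complex I.

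RNA was measured on 10 Affymetrix zebrafish arrays, each hybridised with cRNA from a pool of whole embryos of the earl grey (egy) line, allele cz3, in the AB/WIK background, raised at 28 °C from matings of heterozygous adults. The cz3 defect is recessive and lies in the orthologue of p110, sart3, whose product recycles spliceosomal small nuclear ribonucleoproteins. The groups were siblings at 3 days post fertilization (n = 2 pools), mutants at 3 days (n = 2), siblings at 5 days (n = 3) and mutants at 5 days (n = 3). Embryos were sorted by morphology, so the sibling pools, called wild-type in the labels, may also hold heterozygotes, and the results describe 1 allele.

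Vertebrate mitochondria make only a few proteins themselves, all of them core parts of the respiratory chain and ATP synthase, on a ribosome of their own. The RNA of that ribosome comes from mitochondrial DNA, but its proteins are encoded in the nucleus, made in the cytosol and imported. Imported proteins enter through TOM. TIM23 takes those with a cleavable targeting sequence into the matrix or inner membrane, while the small TIM chaperones hand multi-span carrier proteins to TIM22.

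Signals below are the authors' linear MAS5 intensities, scaled so that all 10 arrays have the same trimmed mean, and each is therefore relative to the rest of its array. Log2 differences are on the scale log2(signal + 64.8), given with their standard errors, and a call is an adjusted p under 0.05 in a limma fit over 11626 probe sets. The signals of 1 gene are not comparable with those of another, since each has its own probes. The gene sart3, the check of the sorting, had signals of 2526 and 2517 in day 3 siblings and 462 and 648 in day 3 mutants. It had 1771, 2586 and 2036 in day 5 siblings and 105, 132 and 809 in day 5 mutants, a log2 difference averaged over the days of -2.45 ± 0.36 (limma adjusted p = 0.00058). Spearman correlations between pools of 1 group ran from 0.968 to 0.988. Sibling replicate 2 of day 3 carries a mutant entry in its strain label, against its title, and its sart3 signal of 2517 is close to the 2526 of the other sibling pool of its day. For sibling replicate 2 and mutant replicate 3 of day 5 the source name says day 4, against their titles and ages. The sart3 signal of that mutant pool, 809, was above the 105 and 132 of the other day 5 mutant pools. The design text of the series says 3 and 4 days, so the labels conflict on the age of the whole later group. Titles and ages were followed here. Whole-embryo RNA cannot tell fewer cells of a type from less RNA per cell.

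The first comparison asked how mutants differ from siblings, averaged over both ages. Of 77 genes tested, 14 were higher in mutants and 0 were lower (18.2% and 0%). The background over all probe sets was 6.97% called higher and 9.51% called lower (810 and 1106 probe sets, or 1082 and 777 with each array centred on its median). This background was not matched to the genes for signal. With the lowest 50% of the 15502 probe sets left out, 70 of the genes were tested and 12 rose, while 763 probe sets were called higher and 893 lower. These 2 counts are of the remaining 50% of probe sets, so their shares are above 6.97% and 9.51%. The excess of the genes called higher over all probe sets was smaller under this filter. Of the 14, mrps33 passed the filter on low signals only through its mutant pools, so its difference is a description and the count rests on the other 13. The gene timm8a, a small TIM chaperone, fell under the filter on low signals and was not tested. The rises were spread unevenly by role: 8 of the 16 tested import genes rose, against 6 of 59 mitoribosome genes, mrps33 among the 6. The 2 shares were not tested against each other. That of the mitoribosome genes, 10.2% with mrps33 counted, is near the 6.97% of all probe sets. The median log2 difference was 0.23 for import genes, 0.14 for mitoribosome genes and -0.02 over all probe sets tested, and 64 of the 77 genes had a positive difference (83.1%, against 46.4% of all probe sets). With arrays centred on their medians, the median over the 77 genes moved from 0.14 to 0.20, and that over all probe sets from -0.02 to 0.04.

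**Figure D1:**
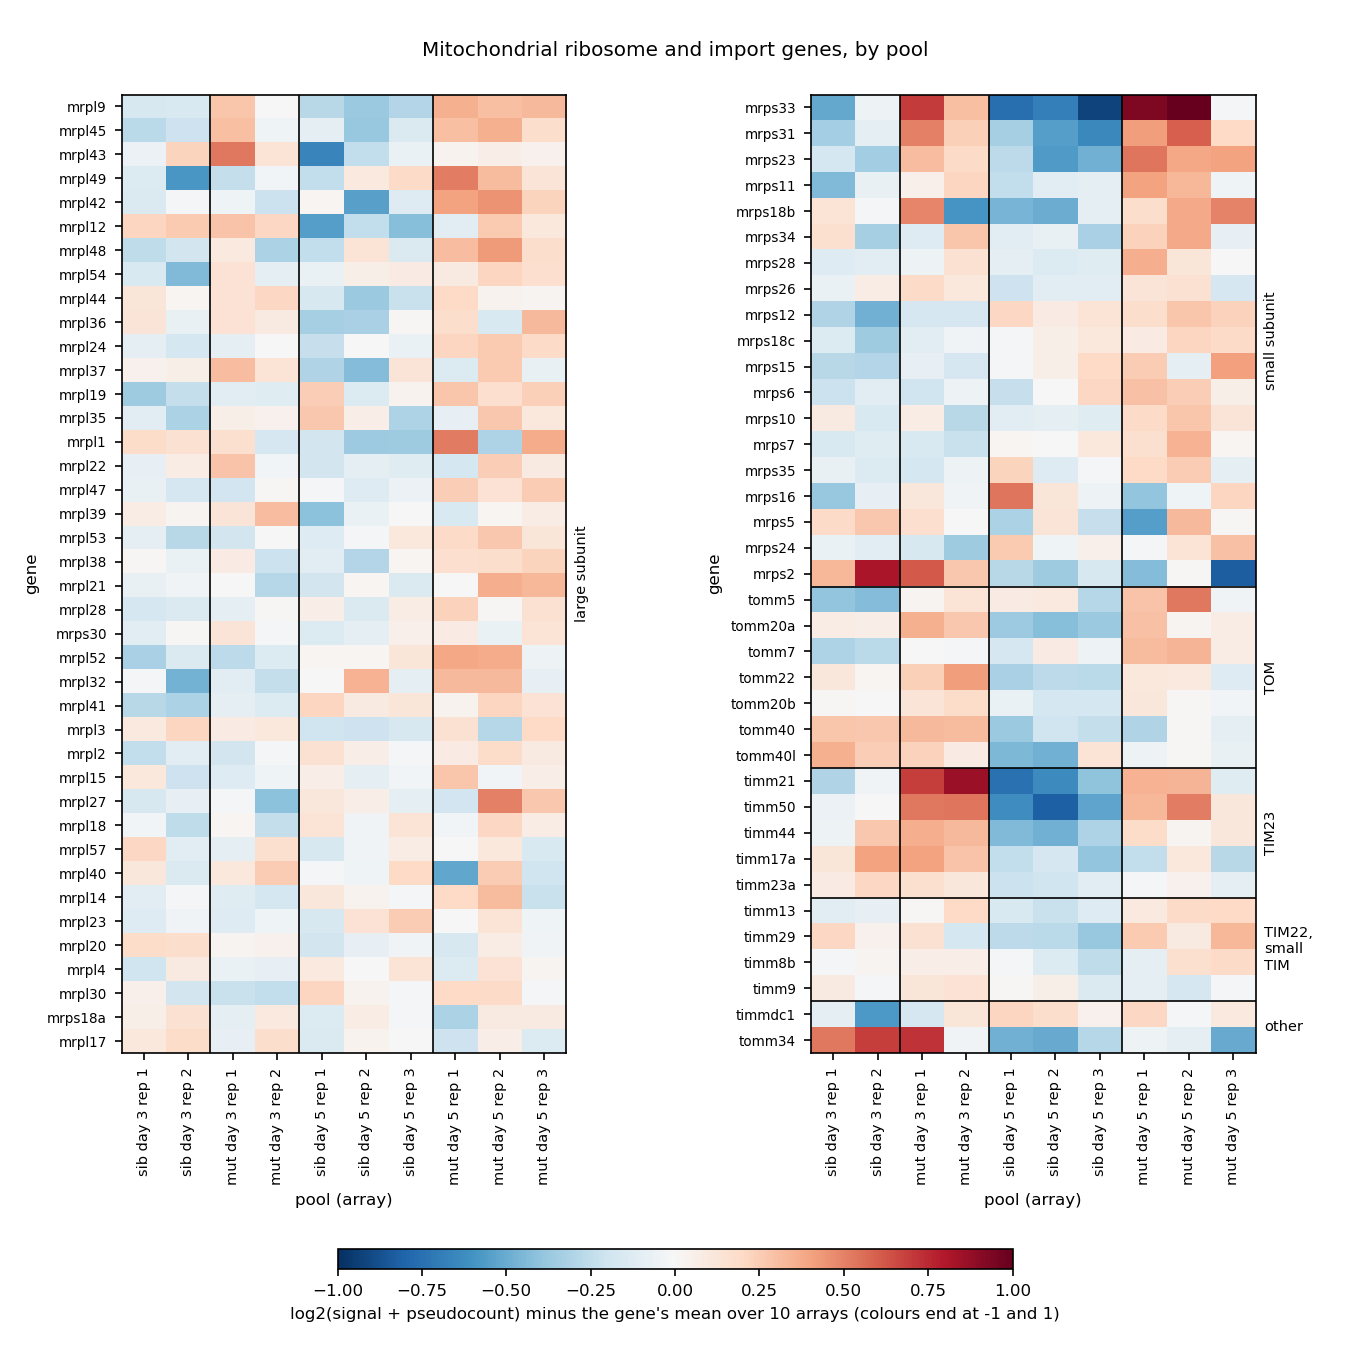
Heat map of log2(signal + 64.8) minus the gene's mean over the 10 arrays, for 77 genes (rows, ordered by role and within it by the averaged difference) in each pool (columns). Red is above and blue below the gene's mean, and colours end at -1 and 1. The day 5 mutant pools have medians over all genes of 0.17, 0.19 and 0.09, and the day 5 sibling pools of -0.16, -0.09 and -0.09.

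Pool by pool, the median deviation of the genes from their own means was -0.07 in both day 3 sibling pools and 0.07 and 0.005 in the day 3 mutant pools. It was -0.16, -0.09 and -0.09 in the day 5 sibling pools and 0.17, 0.19 and 0.09 in the day 5 mutant pools. The mutant pools thus lay above the sibling pools of their own day on both days, with the narrower gap on day 3. For the import genes alone the medians were 0.04 and 0.02 in day 3 siblings, 0.19 in both day 3 mutant pools, -0.25, -0.21 and -0.26 in day 5 siblings, and 0.11, 0.09 and -0.02 in day 5 mutants.

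In the small ribosomal subunit, 4 of 19 genes were called higher, mrps33 among them. The mrps33 signals were 143 and 221 in day 3 siblings, 417 and 301 in day 3 mutants, 112, 120 and 91.6 in day 5 siblings, and 500, 531 and 228 in day 5 mutants. The mutant pools were above the sibling pools on both days, but all 5 sibling signals lie under the filter limit of 232, where MAS5 values are noisy, and the gene was tested only because its mutant pools were high. The fitted averaged difference of 1.11 ± 0.21 (limma adjusted p = 0.0037) is therefore given as a value, with its size uncertain. The gene mrps31 had signals of 1150 and 1376 in day 3 siblings, 2105 and 1747 in day 3 mutants, 1156, 982 and 914 in day 5 siblings, and 1979, 2259 and 1694 in day 5 mutants. Its groups did not overlap on either day, and the averaged difference was 0.75 ± 0.11 (limma adjusted p = 0.00066). A second mrps31 probe set rose by 0.74 (limma adjusted p = 0.00042). For mrps23 the signals were 745 and 655 in day 3 siblings, 1067 and 981 in day 3 mutants, 695, 553 and 591 in day 5 siblings, and 1261, 1128 and 1143 in day 5 mutants. These groups also did not overlap, with an averaged difference of 0.69 ± 0.10 (limma adjusted p = 0.00058). The smallest rise of the 4 was that of mrps11, at 0.38 ± 0.11 (limma adjusted p = 0.038). Its day 3 signals were 975 and 1275 in siblings and 1396 and 1569 in mutants, and its day 5 signals were 1124, 1243 and 1251 in siblings and 1796, 1711 and 1303 in mutants. A second mrps11 probe set of nearly the same mean signal did not pass (0.29, limma adjusted p = 0.11). The mrps11 call ended when any 1 of 8 arrays was left out, with adjusted p from 0.061 to 0.19; only sibling replicate 2 of day 3 and mutant replicate 3 of day 5 could be left out with the call kept.

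In the large subunit, 2 of 40 genes rose, a share below the 6.97% of all probe sets called higher. The gene mrpl9 had signals of 1345 and 1348 in day 3 siblings and 1840 and 1502 in day 3 mutants. On day 5 its signals were 1231, 1149 and 1216 in siblings and 1949, 1871 and 1898 in mutants. The groups did not overlap on either day, and the averaged difference was 0.47 ± 0.09 (limma adjusted p = 0.0029). The gene mrpl45 encodes a protein that, in mammals, holds the ribosome near the inner membrane at the mouth of the exit tunnel. Its signals were 1488 and 1553 in day 3 siblings, 2241 and 1745 in day 3 mutants, 1688, 1375 and 1621 in day 5 siblings, and 2233, 2329 and 2044 in day 5 mutants. It rose by 0.42 ± 0.10 (limma adjusted p = 0.012), a call that ended at an adjusted p of 0.056 when replicate 1 of day 3 was dropped from either genotype. The other 38 genes of the subunit did not pass the test, and the median over all 40 was 0.13.

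TIM23 had the highest median difference of the role groups, 0.38, and 3 of its 5 genes rose. The gene timm50 encodes the receptor that TIM23 presents to incoming proteins in the intermembrane space. Its signals were 2822 and 2957 in day 3 siblings, 4268 and 4293 in day 3 mutants, 1892, 1642 and 2023 in day 5 siblings, and 3727, 4211 and 3183 in day 5 mutants. Every mutant pool was above every sibling pool of either age, and the averaged difference was 0.76 ± 0.09 (limma adjusted p = 0.00016), or 1.70-fold. The gene timm21, whose product contacts TOM and the respiratory chain, had signals of 267 and 333 in day 3 siblings, 592 and 676 in day 3 mutants, 178, 198 and 244 in day 5 siblings, and 455, 452 and 309 in day 5 mutants. The groups did not overlap on either day, and the difference was 0.86 ± 0.15 (limma adjusted p = 0.0016); the mean day 5 sibling signal of 207 lies under the filter limit, so its size is uncertain. For timm44, which tethers the Hsp70 import motor to the channel, the signals were 1068 and 1353 in day 3 siblings, 1447 and 1401 in day 3 mutants, 799, 776 and 883 in day 5 siblings, and 1265, 1131 and 1207 in day 5 mutants. Its groups did not overlap on either day and it rose by 0.38 ± 0.10 (limma adjusted p = 0.020). The timm44 call ended without sibling replicate 1 of day 3 (adjusted p = 0.12), mutant replicate 1 of day 3 (0.062), mutant replicate 2 of day 3 (0.054) or sibling replicate 2 of day 5 (0.051).

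In TOM, 4 of 7 genes rose, with smaller differences. The gene tomm20a encodes a receptor for targeting sequences. Its signals were 2830 and 2820 in day 3 siblings, 3458 and 3251 in day 3 mutants, 2072, 1987 and 2062 in day 5 siblings, and 3300, 2737 and 2840 in day 5 mutants, without overlap on either day. Its averaged difference was 0.38 ± 0.08 (limma adjusted p = 0.0065). The gene tomm22, for the central receptor of the complex, had signals of 6169 and 5796 in day 3 siblings, 6751 and 7646 in day 3 mutants, 4541, 4764 and 4725 in day 5 siblings, and 6137, 6110 and 5205 in day 5 mutants. The groups did not overlap and the difference was 0.28 ± 0.08 (limma adjusted p = 0.024). The small subunits tomm5 and tomm7 rose by 0.40 ± 0.11 and 0.29 ± 0.08 (limma adjusted p = 0.031 and 0.030). Day 5 signals overlapped for both: tomm5 had 5646, 5699 and 4362 in siblings against 6511, 7715 and 5190 in mutants, and tomm7 had 4548, 5426 and 4956 against 6396, 6509 and 5395. On day 3 they did not: tomm5 had 4034 and 3929 against 5427 and 5883, and tomm7 had 4125 and 4235 against 5137 and 5063. These 3 calls depended on single arrays. The tomm22 call ended without sibling replicate 1, sibling replicate 2 or mutant replicate 2 of day 3 (adjusted p from 0.065 to 0.10). The tomm5 call ended without any 1 of 7 arrays, all but sibling replicates 1 and 2 and mutant replicate 3 of day 5 (0.052 to 0.11), and the tomm7 call without any 1 of 8, all but sibling replicate 2 and mutant replicate 3 of day 5 (0.055 to 0.11).

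Among the TIM22 and small TIM genes, 1 of the 4 tested rose, timm13, a chaperone of the intermembrane space. It had signals of 4045 and 4111 in day 3 siblings, 4391 and 5009 in day 3 mutants, 3900, 3718 and 3969 in day 5 siblings, and 4651, 4974 and 4996 in day 5 mutants. The groups did not overlap and the difference was 0.26 ± 0.07 (limma adjusted p = 0.025), a call that ended without either sibling pool of day 3 (adjusted p = 0.097 and 0.077), mutant replicate 2 of day 3 (0.10) or sibling replicate 2 of day 5 (0.064). The untested timm8a had signals of 98.0 and 93.7 in day 3 siblings, 162 and 84.2 in day 3 mutants, 68.2, 73.6 and 58.5 in day 5 siblings, and 93.4, 87.8 and 130 in day 5 mutants. Neither tomm34 nor timmdc1 passed the test in the averaged comparison.

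Over the 77 genes, the groups did not overlap on both days, with mutants higher, for 17 genes, mrps33 among them, and with mutants lower for 0. Over all probe sets these shares were 8.03% and 10.4%. Without sibling replicate 1 of day 3, or without either mutant pool of that day, fewer of the genes were called, and fewer of all probe sets too. The same held when sibling replicate 2 of day 3 was counted as a mutant, as its strain label has it. Only timm50, mrps31, mrps33 and timm44 then kept their calls. As mrps33 was tested only because its mutant pools were high, the calls kept rest on timm50, mrps31 and timm44. Each of these fits leaves 1 pool in a day 3 group.

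On day 3, where there were 2 pools a group, limma called 0 of 77 genes, against 2.06% of all probe sets (1.18% higher and 0.886% lower, 137 and 103 probe sets, or 155 and 65 with median-centred arrays). At an unadjusted p under 0.05, 12 genes were higher and 0 lower, against 14.7% of all probe sets in either direction. The lowest unadjusted p-values belonged to timm21 (0.94 ± 0.23, limma adjusted p = 0.053), timm50 (0.56 ± 0.15, adjusted p = 0.076) and mrps31 (0.58 ± 0.17, adjusted p = 0.12). In the other direction they belonged to mrpl30 (-0.17, adjusted p = 0.64), mrps24 (-0.17, adjusted p = 0.66) and mrpl20 (-0.15, adjusted p = 0.65). The call for timm21 changed with the processing: it passed in 10 of the 22 alternatives that tested it, and its adjusted p ran from 0.019 to 0.96, the highest with the day 3 sibling replicate 2 counted as a mutant, when 0 of all probe sets were called. It was 0.040 with median-centred arrays, 0.046 when mutant replicate 1 of day 5 was dropped and 0.025 when mutant replicate 3 was, and dropping the latter took timm50 to 0.035. The median difference of the genes was 0.09, against -0.03 over all probe sets. Both mutant pools were above both sibling pools for 33 genes, mrps33 among them, and below for 6. Over all probe sets these shares were 21% and 28.1%.

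On day 5, 13 of 77 genes were higher in mutants and 0 were lower. The background was 6.49% called higher and 8.15% called lower (754 and 947 probe sets, or 963 and 733 with median-centred arrays, when 18 of the genes were called). The median difference was 0.19, against -0.01 over all probe sets. Every mutant pool was above every sibling pool for 28 genes, mrps33 among them, and below for 0 (15.1% and 16.8% of all probe sets). The rises numbered 3 of 19 in the small subunit, 4 of 40 in the large subunit, 1 of 7 in TOM, 3 of 5 in TIM23 and 2 of 4 among the TIM22 and small TIM genes. They include mrps33 (1.43 ± 0.27, limma adjusted p = 0.0036), whose day 5 sibling signals are all under the filter limit and whose difference is not ranked here. It was tested only because its mutant pools were high, so the day 5 count of 13 rests on the other genes. Of the others, the highest were those of timm50 (0.97 ± 0.12, limma adjusted p = 0.00016), mrps31 (0.91 ± 0.14, 0.0010), mrps23 (0.88 ± 0.13, 0.00066) and timm21 (0.78 ± 0.18, 0.013). The mean day 5 sibling signal of timm21, 207, is under the filter limit too, so its size and place are uncertain. Also called in both the averaged and the day 5 comparison were mrpl9 (0.64 ± 0.11, limma adjusted p = 0.0018), tomm20a (0.52 ± 0.10, 0.0044), timm44 (0.52 ± 0.12, 0.014), mrpl45 (0.48 ± 0.12, 0.021) and timm13 (0.33 ± 0.09, 0.028).

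**Figure D2:**
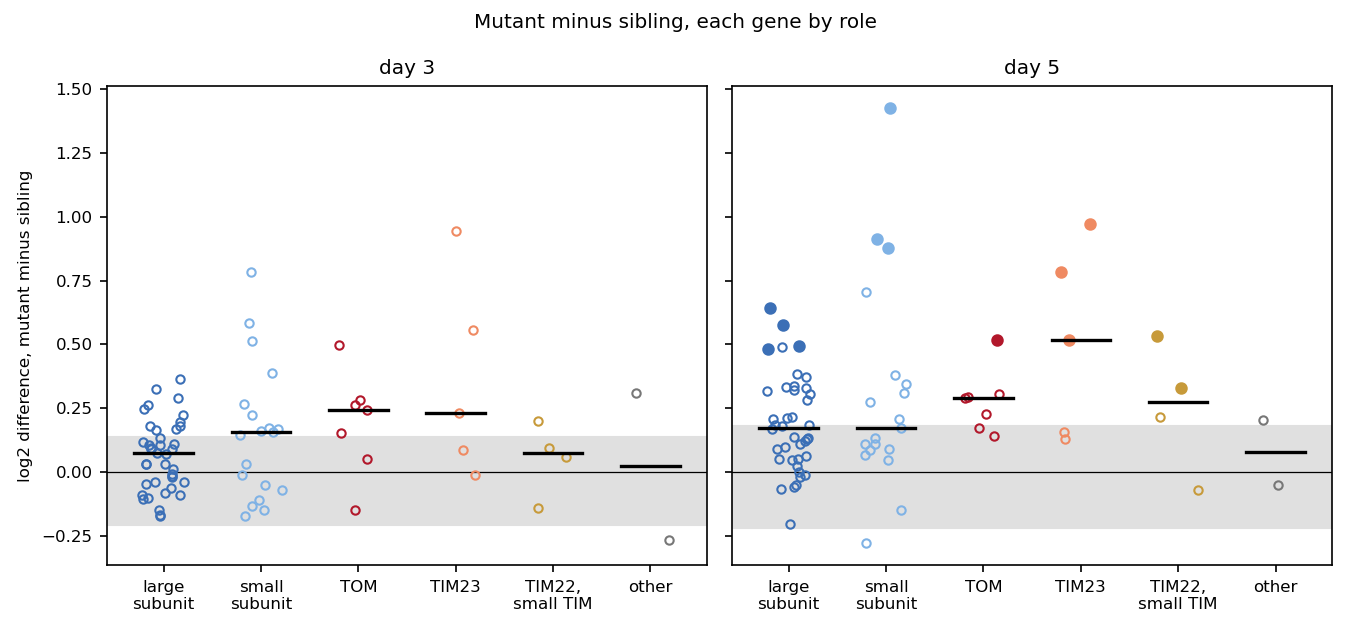
Log2 difference of mutant minus sibling on day 3 (left) and day 5 (right) for each tested gene, by role. Filled points passed the limma test (adjusted p under 0.05), open points did not, black lines are role medians and the grey band spans the 25th to the 75th percentile of all probe sets tested. No gene is filled on day 3 and 13 are filled on day 5, all above 0.

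Called on day 5 but not in the averaged comparison were 3 genes. The gene mrpl12 encodes the stalk protein that helps recruit translation factors. Its signals were 3272 and 3387 in day 3 siblings, 3451 and 3270 in day 3 mutants, 1901, 2358 and 2080 in day 5 siblings, and 2601, 3384 and 3042 in day 5 mutants. The pools overlapped on day 3 and were apart on day 5, where the difference was 0.49 ± 0.12 (limma adjusted p = 0.014). The gene mrpl42, of the large subunit, had 1187 and 1298 in day 3 siblings, 1278 and 1124 in day 3 mutants, 1336, 886 and 1198 in day 5 siblings, and 1762, 1824 and 1551 in day 5 mutants. It too overlapped on day 3 and was apart on day 5, at 0.58 ± 0.15 (limma adjusted p = 0.020). The gene timm29, whose human counterpart is a TIM22 subunit, had 568 and 501 in day 3 siblings, 543 and 421 in day 3 mutants, 392, 390 and 356 in day 5 siblings, and 592, 520 and 627 in day 5 mutants, a day 5 difference of 0.53 ± 0.15 (limma adjusted p = 0.030). Its day 5 mutant pools were above the day 5 sibling pools and within or above the range of the day 3 siblings.

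Several day 5 calls rested on single arrays. Without sibling replicate 2 of day 5, 8 genes were called, and 1047 of all probe sets, against 1701 with every array. The calls of mrpl42 (adjusted p = 0.089), mrpl45 (0.10), timm13 (0.11), timm29 (0.078) and timm44 (0.061) ended. Without sibling replicate 1 those of mrpl12 (0.064), timm13 (0.066), timm21 (0.055) and timm29 (0.066) ended, and without sibling replicate 3 those of timm13 (0.064) and timm29 (0.099). Without mutant replicate 1 the calls of mrpl42 (0.058), mrpl45 (0.056) and timm29 (0.070) ended, without mutant replicate 2 those of mrpl12 (0.054), mrpl42 (0.061), mrpl45 (0.064) and timm13 (0.070), and without mutant replicate 3 those of timm13 (0.051) and timm29 (0.070). The calls of mrpl9, mrps23, mrps31, timm50 and tomm20a held under every alternative run. That of mrps33 held in 22 of 23 and was not tested in the other, which left out the lowest 50% of probe sets. As mrps33 was tested only because its mutant pools were high, this adds no support to its call. With both arrays of the day 4 source name left out, an alternative chosen after seeing the data, timm13, timm29, timm44, mrpl42 and mrpl45 were no longer called (adjusted p = 0.15, 0.13, 0.082, 0.054 and 0.074).

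**Figure D3:**
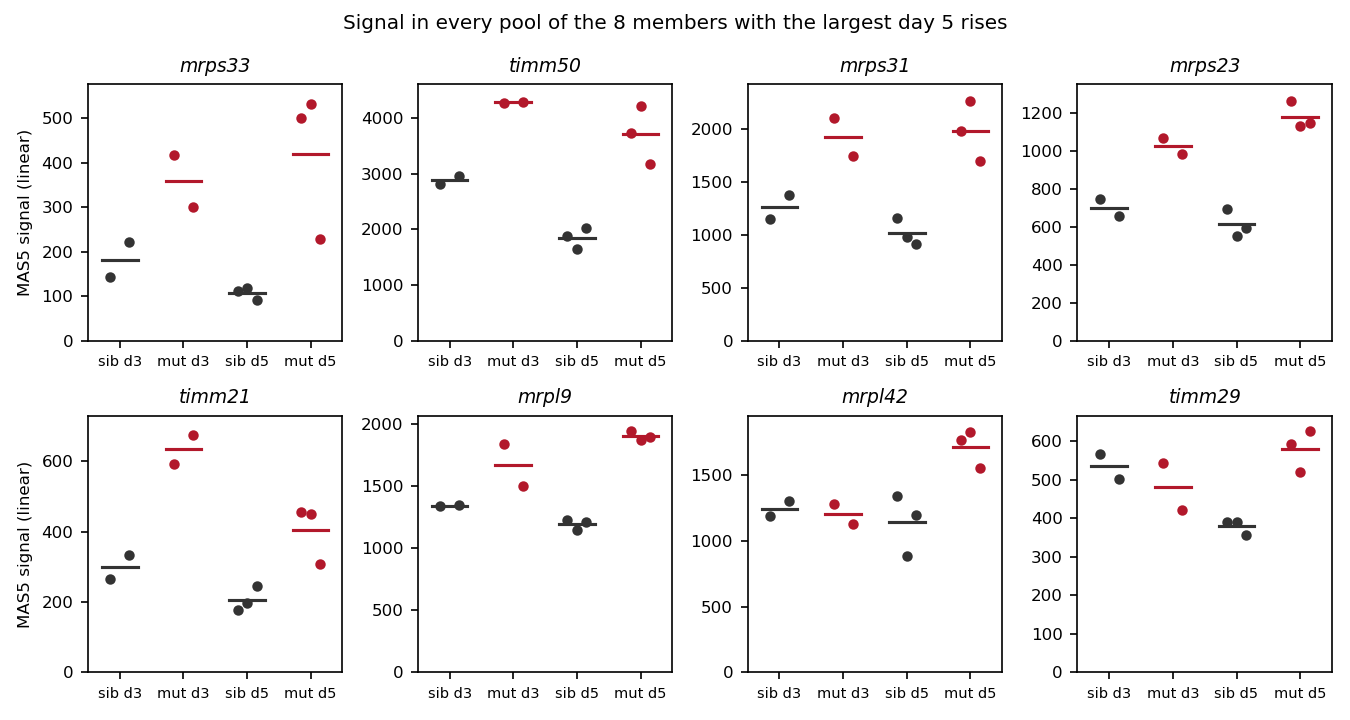
Linear MAS5 signal in every pool (points) for the 8 genes with the largest day 5 rises among those called, with the group mean as a bar. Siblings are marked sib and mutants mut, and d3 and d5 are days 3 and 5. The gene mrps18b, with a day 5 difference of 0.70 ± 0.23 (limma adjusted p = 0.055), was not called and is not shown. Day 5 mutant pools lie above day 5 sibling pools in all 8 panels, while mrpl42 and timm29 overlap on day 3; the mrps33 sibling signals are all under the filter limit of 232.

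Whether the difference between mutants and siblings itself changed from day 3 to day 5 was tested as an interaction. Limma called 0 of 77 genes, and 0 of all probe sets (a background of 0%). At an unadjusted p under 0.05, 5 genes had a larger difference on day 5 and 0 a smaller one, against 771 of all probe sets in either direction (6.63%). The lowest unadjusted p-values on the side of a larger day 5 difference were those of timm29 (0.67 ± 0.24, limma adjusted p = 0.60), mrpl42 (0.62 ± 0.23, adjusted p = 0.64) and mrpl12 (0.48 ± 0.19, adjusted p = 0.66). On the other side they were those of mrps16 (-0.55, adjusted p = 0.81), timmdc1 (-0.36, 0.82) and mrpl40 (-0.40, 0.85). The calls made on day 5 and not on day 3 are therefore not shown to differ between the days.

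The change with age was then followed within each genotype. In siblings, 2 of 77 genes were higher on day 5 than on day 3 and 11 were lower, against 8.39% and 10.1% of all probe sets. The genes that fell were mostly of the import machinery, 8 of 16 tested against 2 of 59 mitoribosome genes, with medians of -0.39 and 0.03. In TOM, the channel gene tomm40 had signals of 5166 and 5143 on day 3 and 3289, 3702 and 3612 on day 5, and fell by 0.54 (SE 0.11, limma adjusted p = 0.0076). Its paralogue tomm40l (-0.57, adjusted p = 0.034) and the receptor genes tomm20a (-0.46 ± 0.11, 0.016) and tomm22 (-0.35 ± 0.11, 0.041) also fell, and the tomm20a and tomm22 pools of the 2 ages did not overlap. In TIM23, the falls were those of timm50 (-0.63 ± 0.13, limma adjusted p = 0.0077), of the channel genes timm17a (-0.53 ± 0.14, 0.021) and timm23a (-0.32 ± 0.10, 0.048), and of timm44 (-0.52 ± 0.14, 0.021). The signals of timm17a were 4637 and 5661 on day 3 and 3595, 3794 and 3237 on day 5. No gene of TIM22 or the small TIMs passed the test.

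Outside the import groups, the siblings' tomm34 had signals of 1366 and 1538 on day 3 and 646, 636 and 749 on day 5, a change of -1.03 ± 0.21 (limma adjusted p = 0.0067). Of the mitoribosome genes, 2 fell and 2 rose. The small-subunit gene mrps2 had 1280 and 1811 against 815, 769 and 888 (-0.84 ± 0.22, limma adjusted p = 0.022), and mrpl12, from the signals above, changed by -0.65 ± 0.13 (adjusted p = 0.0067). The 2 rises were those of mrps12, which encodes a protein of the decoding site, with 1555 and 1363 on day 3 and 2242, 2051 and 2128 on day 5 (0.54 ± 0.11, limma adjusted p = 0.0076), and of mrpl41 of the large subunit, with 1632 and 1585 against 2314, 2126 and 2168 (0.44 ± 0.11, adjusted p = 0.018).

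All of these sibling calls depended on the day 3 pair. Without sibling replicate 2 of day 3, 0 genes were called, of 381 probe sets called in all, and the adjusted p-values of the 13 genes ran from 0.080 to 0.32. Without sibling replicate 1 of day 3 fewer were called too, among these genes and over all probe sets. Without sibling replicate 1 of day 5, 6 were called, and without sibling replicate 2 of day 5, 7. Over all probe sets 1220 and 1416 were called in these 2 fits, against 2150 with every array. The call of timm23a ended without any 1 of 7 arrays (adjusted p from 0.056 to 0.32), all but mutant pools of day 5, and that of tomm22 without any 1 sibling pool (0.079 to 0.22).

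In mutants, 1 gene was higher on day 5 than on day 3 and 3 were lower, against 8.57% and 10.4% of all probe sets. The small-subunit gene mrps2 had signals of 1568 and 1222 on day 3 and 727, 1013 and 538 on day 5 (-0.86, limma adjusted p = 0.020). The signals of tomm40 were 5357 and 5330 against 3441, 4297 and 4002 (-0.45 ± 0.11, limma adjusted p = 0.017), and those of timm17a 5671 and 5223 against 3596, 4604 and 3507 (-0.48 ± 0.14, adjusted p = 0.029). The gene mrps12 was higher, with 1715 and 1711 against 2195, 2356 and 2282 (0.40 ± 0.11, limma adjusted p = 0.028). All 4 were also called in siblings, in the same direction. Among the other genes called in siblings, these had smaller differences in mutants that did not pass the test: tomm34 -0.56, timm50 -0.21, timm44 -0.24, tomm20a -0.18 and mrpl12 -0.16. Over the 16 import genes tested, the median change in mutants was -0.19, against -0.39 in siblings and -0.01 over all probe sets in mutants. Of these 16 genes, 11 were lower on day 5 in mutants and 5 higher, and all 5 TIM23 genes were lower. No gene passed the interaction test of a difference in change with age. Dropping either mutant pool of day 3 leaves 1 pool in that group, and most or all of the 4 calls then ended. Dropping mutant replicate 3 of day 5 gave 7 calls, with 1993 over all probe sets, against 2210 with every array. Leaving out mutant replicate 1 of day 3 ended the calls of mrps2 (adjusted p = 0.16), mrps12 (0.11), timm17a (0.17) and tomm40 (0.088), and leaving out mutant replicate 2 ended those of mrps12 (0.11), timm17a (0.084) and tomm40 (0.079). The call of timm17a also ended without mutant replicate 1 (0.075) or 3 (0.072) of day 5, and that of mrps12 without mutant replicate 2 of day 5 (0.055).

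**Figure D4:**
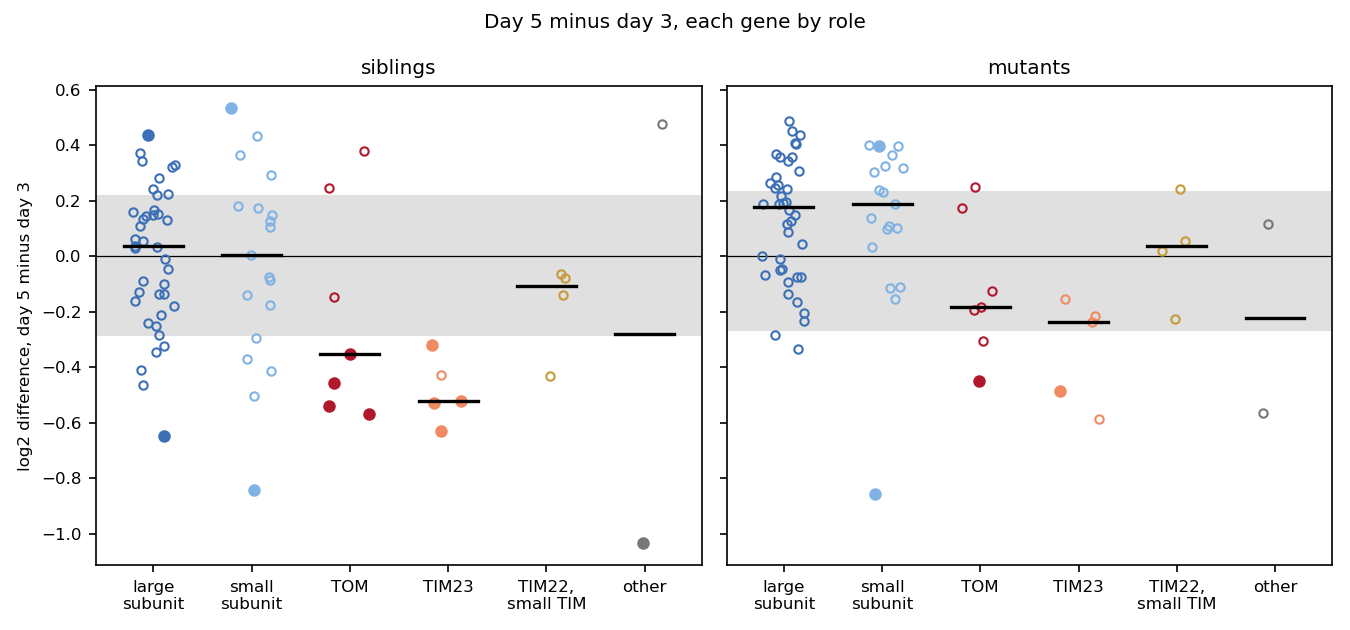
Log2 difference of day 5 minus day 3 in siblings (left) and mutants (right) for each tested gene, by role. Filled points passed the limma test (adjusted p under 0.05), open points did not, black lines are role medians and the grey band spans the 25th to the 75th percentile of all probe sets tested. In siblings 8 import genes are filled, all below 0, and in mutants 2.

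Other genes of mitochondrial protein synthesis and import were taken from lists written for this work with earlier results of these data known, and most of their tested genes did not pass. The shares to set their counts against are those of all probe sets, 6.97% higher and 9.51% lower in the averaged comparison and 6.49% and 8.15% on day 5; a count of 1 in 10 is near that share. Of 8 translation factors tested, 2 rose in mutants in the averaged comparison and 0 fell: tufm, the elongation factor that delivers aminoacyl-tRNA (0.31, limma adjusted p = 0.022), and taco1, an activator of translation of a cytochrome oxidase subunit (0.56). Of 6 aminoacyl-tRNA synthetases tested, pars2 (0.91) and kars1 (0.28) rose, and of 10 genes for ribosome assembly and ribosomal RNA modification, rcc1l rose (0.39). Of 17 other import and folding genes, hspa9, the Hsp70 of the import motor (0.22), hspe1, the matrix co-chaperonin (0.25), and the protease subunit gene afg3l2 (0.66) rose, and 0 fell. On day 5 the import and folding list had 5 rises and 0 falls, including afg3l2 (0.84), lonp1 (0.52), hspe1 (0.48) and hspa9 (0.47), and its median was 0.24. Of 10 genes for mitochondrial DNA upkeep and transcription, supv3l1, an RNA helicase, rose (0.63).

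Of 28 tested genes taken as a gauge of mitochondrial content, 2 rose and 2 fell in the averaged comparison, with a median of 0.04. Both counts are near the shares of all probe sets, 6.97% higher and 9.51% lower. The rises were those of immt, an organiser of cristae (0.50), and slc25a4, an ADP/ATP carrier (0.30). The falls were those of slc25a3a, a phosphate carrier (-1.33), and nrf1, a transcription factor of nuclear genes for mitochondria (-0.37). On day 5, 2 of the 28 rose and 4 fell, with a median of 0.06, against 6.49% higher and 8.15% lower over all probe sets. On day 3 immt was the only gene of the 6 lists to be called (0.52, limma adjusted p = 0.048), where 2.06% of all probe sets were called. With age in siblings, 6 of the 17 other import and folding genes fell and 3 rose, against 10.1% lower and 8.39% higher over all probe sets. The falls included grpel1, the nucleotide exchange factor of the import motor (-1.03), chchd4a, the import receptor of the intermembrane space (-0.76), hspd1, the matrix chaperonin (-0.75), and hspa9 (-0.66). The rises were those of romo1 (0.74), pam16, of the import motor (0.57), and mtx2, of the outer membrane (0.38).

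Markers of tissues moved with genotype in the same pools. The summed signal of skeletal muscle markers was 784651 to 802466 in day 3 siblings, 901660 to 925384 in day 3 mutants, 809307 to 995008 in day 5 siblings and 1000930 to 1099560 in day 5 mutants, and 8 of 15 rose while 0 fell in the averaged comparison. Photoreceptor markers summed to 118350 to 141382, 42179 to 48676, 217141 to 290802 and 16632 to 76322 in the same order, and all 11 tested fell. Exocrine pancreas markers summed to 16376 to 22397, 3249 to 3899, 93228 to 132063 and 3767 to 21875, and all 11 tested fell. Neuron markers summed to 103769 to 108556, 86686 to 89447, 98280 to 104364 and 77115 to 82761, with 6 of 10 lower and 0 higher. No marker was at 0 in any group, and the part of these tissues in the differences of the mitochondrial genes was not tested.

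For 11 of the 78 genes the array carries further probe sets, 12 in all and all tested. In the averaged comparison 10 of the 12 had the sign of the probe set shown. The other sign was that of 1 further mrps5 probe set (0.18, against -0.04 for the one shown) and of the further mrps7 probe set. On day 3 the sign differed for mrpl19, mrps18b, mrps35 and 1 further mrps5 probe set, and on day 5 for mrps35, timmdc1 and 1 further mrps5 probe set. Between the ages it differed for 6 of 12 in siblings (mrpl19, mrpl28, mrps11, mrps5, mrps7 and timmdc1) and for 5 of 12 in mutants (mrpl19, mrps18b, mrps5 and timmdc1). Of the probe sets with the other sign, 1 passed the test: in siblings the second mrpl19 probe set changed by -0.56 (limma adjusted p = 0.049), while the one shown was at 0.34 (adjusted p = 0.096). Calls also differed without a difference in sign: the second mrps18b probe set fell in siblings (-0.65, limma adjusted p = 0.020; shown, -0.41 and 0.28), and the second mrps7 probe set rose in mutants (0.48, limma adjusted p = 0.031; shown, 0.37 and 0.077). The genes of highest mean signal on their own probes were tomm22, tomm5 and tomm7, and those of lowest were mrpl43, mrps33 and timm8a, an order that probe differences alone can set.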

How the data were processed

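The deposited table holds linear signal intensity per probe set and array, made by the authors with MAS5 per the submitters' processing notes. The version is not given in the sources used here, nor are detection calls. With 2% trimmed, the means of the arrays lay between 1500.35 and 1500.42, so the deposited intensities had already been scaled, and array medians ran from 596 to 671. Of 15617 probe sets, 115 controls were left out; platform annotation of 2016 gave 10795 of the others 1 symbol, 135 several and 4572 none, and all 78 members matched RefSeq by symbol. Coordinates were left out, since no build is named. Every value column had a sample.

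Tests used log2(signal + 64.8), where the pseudocount, 10% of the median signal, makes changes at low signal look smaller. Probe sets in the bottom 25% by mean signal (limit 232) were not tested. Means of the 4 groups were fitted on all 10 arrays with limma 3.58.1 (R 4.3.3), eBayes with a trend (6 residual and 6.51 prior degrees of freedom) and Benjamini-Hochberg adjustment over 11626 probe sets, for 6 comparisons. The script was tested on simulated data. The number of arrays limits the precision, and the labels call the pools biological replicates. Comparisons that share groups are not independent of each other.

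Day 5 pools of the same replicate number deviated together (correlations of 0.232, 0.265 and 0.229), and the day 3 pools did not (-0.047). A replicate block that pairs pools by number was therefore run as an alternative only. Except where an alternative is named, differences, standard errors and adjusted p-values come from the fit of group means, without pairing. Counts of calls with the block are in the part on processing. Members and lists were chosen with earlier results of these data known. Genes are named by rule: per role, comparison and direction up to 5 called members with the largest difference (4 between days), the 3 of lowest p per direction where none was called, and up to 4 called genes per list. The alternatives were centring, quantile normalization, pseudocounts, filters, no trend, array weights, mean of probe sets, groups compared alone, each array left out, label conflicts and the replicate block.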

Additional observations from a re-analysis of the deposited data

Results flagged for a closer look

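The gene mrpl9 had age differences of opposite sign in the 2 genotypes, -0.16 in siblings and 0.19 in mutants, neither of which passed the test (limma adjusted p = 0.39 and 0.31). Its day 5 sibling signals (1231, 1149 and 1216) were all below the day 3 sibling signals (1345 and 1348), while its day 5 mutant signals (1949, 1871 and 1898) were all above the day 3 mutant signals (1840 and 1502). The difference between the 2 changes was 0.35 on the log2 scale, and its interaction test did not pass (limma adjusted p = 0.76).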

How the results depend on the processing

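In the averaged comparison the 14 calls became 9 without the mean-variance trend, 4 with the label conflict of day 3 settled the other way (sibling replicate 2 as a mutant; the label swap), 15 with the replicate block and 7 to 14 with an array left out. On day 3 the 0 calls became 1 with median centring, quantile normalization, a pseudocount of 50% of the median, no trend or the replicate block, and 2 with array weights, the mean of all probe sets, only the groups compared or both arrays of the day 4 source name left out; leaving out an array gave 0 to 2. On day 5 the 13 calls ran from 8 to 15 with an array left out and numbered 18 with median centring and 14 with the replicate block. The 14 averaged and 13 day 5 calls, mrps33 among both, were all kept under the block. The interaction had 0 calls in all 22 alternatives. The 13 calls with age in siblings became 24 with array weights (8 higher, 16 lower), 0 with the label swap, 12 with the block and 0 to 14 with an array left out; the 4 in mutants became 2 with array weights, 9 with the label swap, 0 with only the groups compared, 5 with the block and 1 to 7 with an array left out. Over all 11626 probe sets, the calls with age in siblings went from 2150 to 3661 with array weights (1665 higher, 1996 lower). In mutants they went from 2210 to 1691 with array weights and to 1057 with only the groups compared. The label swap, and each fit without a day 3 pool, leaves 1 pool in a group. In the averaged comparison these fits also called fewer of all probe sets. The cause of the shifts in the counts was not tested. Of 136 medians over the genes, 126 moved by less than the spread between pools, 10 by more and 0 changed sign. For the 44 called results on single genes, 825 of 993 values stayed past the threshold and 0 changed sign. In the averaged comparison the calls of mrps31 and timm50 held in all 22 alternatives. That of mrps33 held in the 21 that tested it, which adds no support, as the gene was tested only through its high mutant pools. Of single-gene results, only the interaction of timmdc1 changed sign, to 0.065 (adjusted p = 0.99) under the label swap. Low signals, as of mrps33, limit how well a size is known.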
